A study of Mus musculus with 2 samples.

Results

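The genes described here are 8 transcription factors of the early eye: Mitf, Tfec, Otx2, Pax6, Lhx2, Six3, Six6 and Rax. They were taken from the deposited gene lists by symbol, 8 of 31053 genes, and their transcripts were read in single cells of newborn mouse eye cups. There was 1 library of Myrf fl/fl eye cups (called control) and 1 library of Rx>cre Myrf fl/fl eye cups (called mutant), both at postnatal day 0 (P0). Each library pooled 3 eye cups, from which cornea, lens and optic nerve had been removed before papain dissociation. Both alleles of Myrf, a gene for a transcription factor made as a membrane protein, were floxed in both genotypes. Only the mutant carried the Rx>cre transgene, which drives cre in the early eye field, so that the neural retina and the retinal pigment epithelium (RPE) both descend from cells that had cre. Neither genotype had a second library, so each difference below lies between 2 pools, has no replicate check and carries no p-value.

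The vertebrate eye begins as a single field of cells in the anterior neural plate that turns on Rax, Six3, Pax6, Lhx2 and Six6 together. The field forms the optic vesicles, and each vesicle divides its cells between the RPE, a pigmented sheet that serves the photoreceptors, and the neural retina, whose progenitors give rise to all retinal neurons. MITF, a basic helix-loop-helix leucine zipper protein, and the homeodomain protein OTX2 are required for the RPE and act on genes of melanin synthesis. TFEC is a relative of MITF that is found in the RPE of the embryo and in macrophages. PAX6, SIX3, SIX6, LHX2 and RAX remain in retinal progenitors and in some neurons, and OTX2 returns in newborn photoreceptors and bipolar cells.

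On the GRCm38 genome and in GENCODE M21, Mitf (ENSMUSG00000035158) lies on chromosome 6 from 97807052 to 98021349 and Tfec (ENSMUSG00000029553) on the same chromosome from 16833373 to 16898441. Otx2 (ENSMUSG00000021848) lies on chromosome 14 from 48657677 to 48673819. Pax6 (ENSMUSG00000027168) and Lhx2 (ENSMUSG00000000247) lie on chromosome 2, from 105668900 to 105697364 and from 38339281 to 38369733. Six3 (ENSMUSG00000038805) lies on chromosome 17 from 85613608 to 85629302 and Six6 (ENSMUSG00000021099) on chromosome 12 from 72939892 to 72944899. Rax has the identifier ENSMUSG00000024518. For 7 of the 8 genes another gene overlaps on the opposite strand, such as Pax6os1, Six3os1 and Otx2os1. Whether counting used strand is not given in the sources used here, so reads of such partners could be included.

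Sequences around the start sites were read from RefSeq (GRCm38.p6), 250 bases before to 50 bases after each start, and held 14 stretches for 7 of the 8 genes. They were searched on both strands for 4 motifs. MITF and its relatives recognise the E-boxes, here CACGTG, which reads alike on both strands, and CACATG, which reads as CATGTG from the opposite strand. OTX proteins recognise GGATTA, which reads as TAATCC from the opposite strand. LHX2, RAX and other homeodomain proteins recognise TAATTA, which shares its first letters with the OTX motif read in reverse. Of the members' 14 stretches 4 held any of these motifs: TAATTA was in 3, GGATTA in 2, CACATG in 1 and CACGTG in 0. Among all 32851 stretches of that length in the table, TAATTA was in 5.29%, GGATTA in 7.06%, CACATG in 14.2% and CACGTG in 7.15%. One start of each of the genes that were higher in RPE-like cells than in progenitors, Mitf and Otx2, is shown, for each gene the one that held most TAATTA, with the motifs in capitals. Both stretches lie inside their gene, the first at the most downstream of the 3 Mitf starts in the table (chr6:97991533-97991832, plus strand) and the second at an Otx2 start (chr14:48665060-48665359, minus strand).
Mitf: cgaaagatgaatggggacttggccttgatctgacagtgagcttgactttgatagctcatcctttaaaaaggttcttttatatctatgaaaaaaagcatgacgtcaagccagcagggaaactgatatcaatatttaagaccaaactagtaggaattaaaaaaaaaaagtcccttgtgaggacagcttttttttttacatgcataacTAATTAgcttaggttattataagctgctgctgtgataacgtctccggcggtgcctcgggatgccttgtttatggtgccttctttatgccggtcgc
Otx2: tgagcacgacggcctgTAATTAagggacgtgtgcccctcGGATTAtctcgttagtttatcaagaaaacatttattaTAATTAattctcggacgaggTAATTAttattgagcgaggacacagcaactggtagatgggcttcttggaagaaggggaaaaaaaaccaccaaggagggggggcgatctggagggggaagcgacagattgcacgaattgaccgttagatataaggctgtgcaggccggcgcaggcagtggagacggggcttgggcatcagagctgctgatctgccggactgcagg
The Otx2 stretch held TAATTA at 3 places and GGATTA once. A match gives the letters only. The libraries were read at transcript ends, so which of the starts was used cannot be told apart.

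The deposited matrices held raw counts of unique molecular identifiers (UMIs, each marking 1 captured transcript). There were 14305 barcodes with 79017429 UMIs in the control and 12222 barcodes with 76272867 UMIs in the mutant, and 59 barcodes occurred in both. Quality filters and a doublet caller left 12381 cells of the control and 10805 of the mutant, at median depths of 4274 and 4810 UMIs. Clustering gave 37 clusters, and names were given from fixed marker lists without use of the 8 genes. RPE-like cells were 1 cluster of 477 control and 212 mutant cells that held 10 of 12 RPE markers and was led by Ttr, Slc16a8 and Rgr. These cells differed in depth between the libraries, with medians of 2542 and 9788 UMIs. Retinal progenitor-like cells (3570 and 4293) were deeper than control RPE-like cells and alike between the libraries, with medians of 4732 and 4892 UMIs. UMIs of each gene were summed per library and class and scaled to the class total as CPM, counts per 1000000. All intervals are 95% intervals that cover counting error only.

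The deleted gene was read first. Myrf stood at 231 CPM (743 UMIs) in RPE-like cells of the control and 27.5 CPM (66 UMIs) in those of the mutant, and its log2 ratio, mutant over control, was -3.03 (from -3.46 to -2.71). Less Myrf was thus found in the library labelled as mutant, and the remaining UMIs may include ends of transcripts that lack the deleted part.

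Mitf was highest in pigment cells. Control RPE-like cells held 540 UMIs of it, 168 CPM (from 154 to 183), and mutant RPE-like cells 370 UMIs, 154 CPM (from 139 to 171). The intervals of the 2 libraries overlapped. Melanocyte-like cells, pigment cells that come from the neural crest and not from the eye field, were higher at 513 CPM in 30 control cells and 470 CPM in 18 mutant cells. Retinal progenitor-like cells held 1.76 and 0.919 CPM from 32 and 21 UMIs, and mesenchyme-like, neurogenic-like and photoreceptor-like cells lay between 0.347 and 5.79 CPM. Amacrine-like cells held 7.54 and 5.17 CPM, most of it in the cluster led by AI593442 and Crabp1, where the levels were 15.2 and 11.7 CPM. After each cell was thinned to 1000 UMIs, 11.3% of 379 control RPE-like cells and 15.4% of 182 mutant RPE-like cells held a Mitf UMI, against 0.224% and 0.186% of progenitor-like cells. Thinning left out 98 control and 30 mutant RPE-like cells that were shallower, and the unthinned shares were 43.2% and 56.1%.

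Tfec, the relative of Mitf, had 0 UMIs in RPE-like cells of either library. A count of 0 allows up to 0.933 CPM in control and 1.25 CPM in mutant cells. Progenitors, neurogenic-like and amacrine-like cells and melanocyte-like cells held 0 UMIs as well. The gene was read in white blood-like cells, led by the macrophage genes Pf4, C1qb and C1qc, with 55 control UMIs (31.0 CPM) and 25 mutant UMIs (38.4 CPM). Each other named class held at most 2 UMIs of Tfec in a library. In white blood-like cells 13.6% of control and 23.5% of mutant cells held a UMI, and after thinning 2.16% and 4.84%.

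Otx2 stood high in the pigment epithelium and in newborn photoreceptors. In the following, paired values give the control first and the mutant second. Control RPE-like cells held 2194 UMIs, 682 CPM (from 654 to 712), and mutant RPE-like cells 1305 UMIs, 544 CPM (from 515 to 574). Photoreceptor-like cells were at 2010 and 1975 CPM, and neurogenic-like cells, which express Atoh7 and Dll genes and are about to become neurons, at 1480 and 1411 CPM. Retinal progenitor-like cells were low, at 18.3 and 18.9 CPM. This is no more than red blood-like cells held (55.7 and 35.4 CPM), a class that should lack the gene. Whether it comes from free RNA in the droplets was not tested. Among neurogenic clusters Otx2 was at 716 and 786 CPM in the cluster led by Olig2, 1490 and 1336 CPM in that led by Atoh7, and 2450 and 2463 CPM in that with Neurod4 and Neurod1 among its leading genes. The highest level was in an unnamed cluster led by Fabp7 and Insm2 that also held photoreceptor markers, at 3165 and 3017 CPM. Within photoreceptor-like cells the cluster led by Nr2e3, a rod gene, was at 2331 and 2293 CPM and the cluster led by the cone genes Pde6h and Opn1sw at 1375 and 1378 CPM. Within the neurogenic class and within the photoreceptor class the order of the clusters was thus the same in both libraries.

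Pax6 and Lhx2 were read in both the pigment epithelium and the neural retina. Pax6, a paired-box factor needed in both tissues, was highest in amacrine-like cells, at 1607 CPM in each library. It was at 513 and 533 CPM in retinal progenitor-like cells, 237 and 236 CPM in neurogenic-like cells and 67.8 and 53.4 CPM in photoreceptor-like cells. RPE-like cells held 431 and 347 UMIs, 134 CPM (from 122 to 147) and 145 CPM (from 130 to 161). Surface epithelium-like cells, which express keratin genes and do not come from the eye field, held 555 CPM in both libraries. Red blood-like cells were at 45.0 and 56.0 CPM, below RPE-like cells in each library. Lhx2, a LIM homeodomain factor that maintains progenitors, was highest among the classes of the retina in progenitor-like cells, at 343 and 338 CPM. It was at 103 and 110 CPM in neurogenic-like cells and between 50.5 and 59.4 CPM in photoreceptor-like and amacrine-like cells. RPE-like cells held 542 UMIs of Lhx2 in the control, 169 CPM (from 155 to 183), and 536 UMIs in the mutant, 223 CPM (from 205 to 243). The astrocyte-like cells, 31 and 34 cells led by Cartpt, Fbxo2 and Pax2, also held Lhx2, at 284 and 375 CPM.

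Six3, Six6 and Rax were high in the neural retina and each differed among its neurons in another way. Six3 was at 647 and 642 CPM in progenitor-like cells, 490 and 545 CPM in neurogenic-like cells, 271 and 285 CPM in photoreceptor-like cells and 740 and 645 CPM in amacrine-like cells. Six6 was at 410 and 384 CPM in progenitor-like cells, 219 and 205 CPM in neurogenic-like cells, 287 and 294 CPM in photoreceptor-like cells and 629 and 606 CPM in amacrine-like cells. Rax was at 504 and 493 CPM in progenitor-like cells, higher in neurogenic-like cells (808 and 798 CPM) and photoreceptor-like cells (810 and 753 CPM), and low in amacrine-like cells (138 and 124 CPM). Among these neural classes Rax was thus highest where Otx2 was high and lowest where Pax6 was highest.

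The 3 amacrine clusters differed in Six3, Six6 and Rax. The cluster led by Krt73 with Ptf1a and Prdm13, genes of amacrine cells that have just been born, held 1095 and 972 CPM of Six3, 346 and 317 CPM of Six6 and 354 and 329 CPM of Rax. The cluster led by Klhl35 held 789 and 685 CPM of Six3, 890 and 896 CPM of Six6 and 74.2 and 63.6 CPM of Rax. The cluster led by AI593442 and Crabp1 held 426 and 404 CPM of Six3, 612 and 592 CPM of Six6 and 31.8 and 31.9 CPM of Rax. Rax and Six3 were therefore highest in the Ptf1a cluster and Six6 in the Klhl35 cluster, in both libraries. Pax6 was highest in the Ptf1a cluster too, at 1839 and 1681 CPM. It was at 1626 and 1499 CPM in the Klhl35 cluster and 1412 and 1633 CPM in the AI593442 cluster. Within amacrine-like cells Rax was thus not lowest where Pax6 was highest. In photoreceptor-like cells Six6 was at 221 and 213 CPM in the rod cluster and at 418 and 446 CPM in the cone cluster, the reverse of Otx2.

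**Figure D1:**
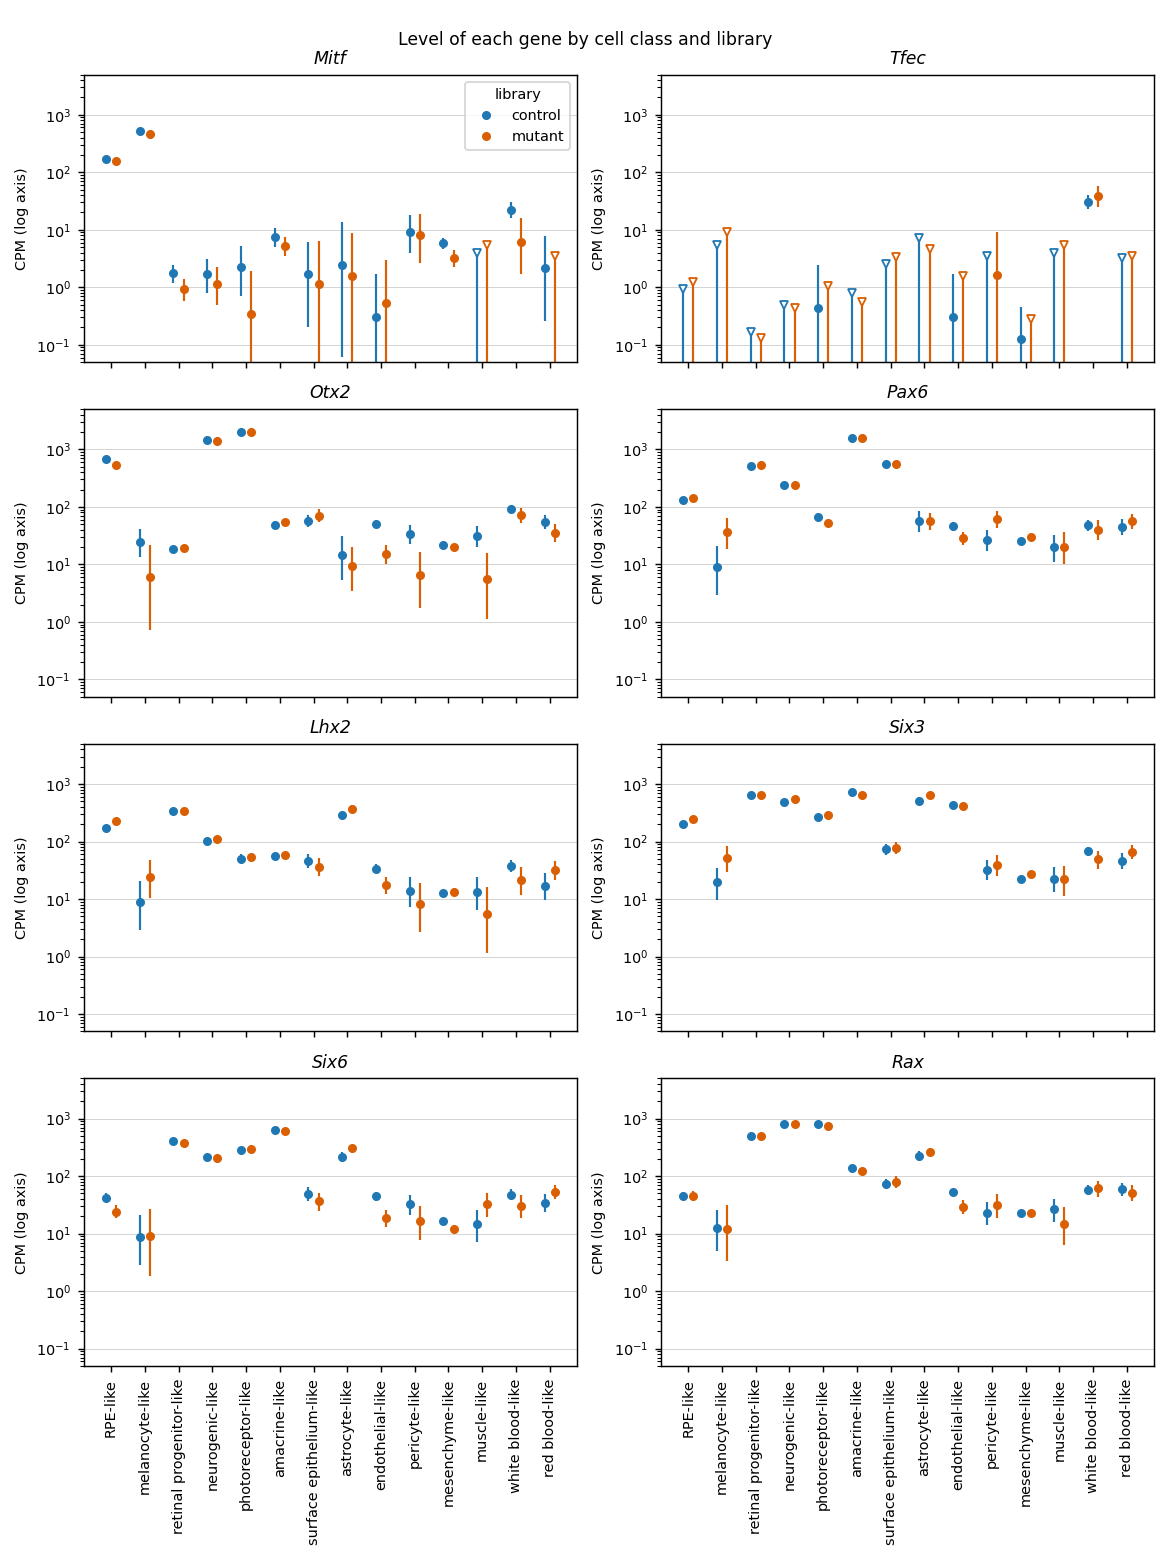
Level of each gene in CPM (log axis) by cell class, control in blue and mutant in orange, with 95% counting intervals and open triangles for the upper limit of a count of 0. Mitf stands out in RPE-like and melanocyte-like cells, Tfec in white blood-like cells, and Otx2 in RPE-like, neurogenic-like and photoreceptor-like cells, in both libraries.

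**Figure D2:**
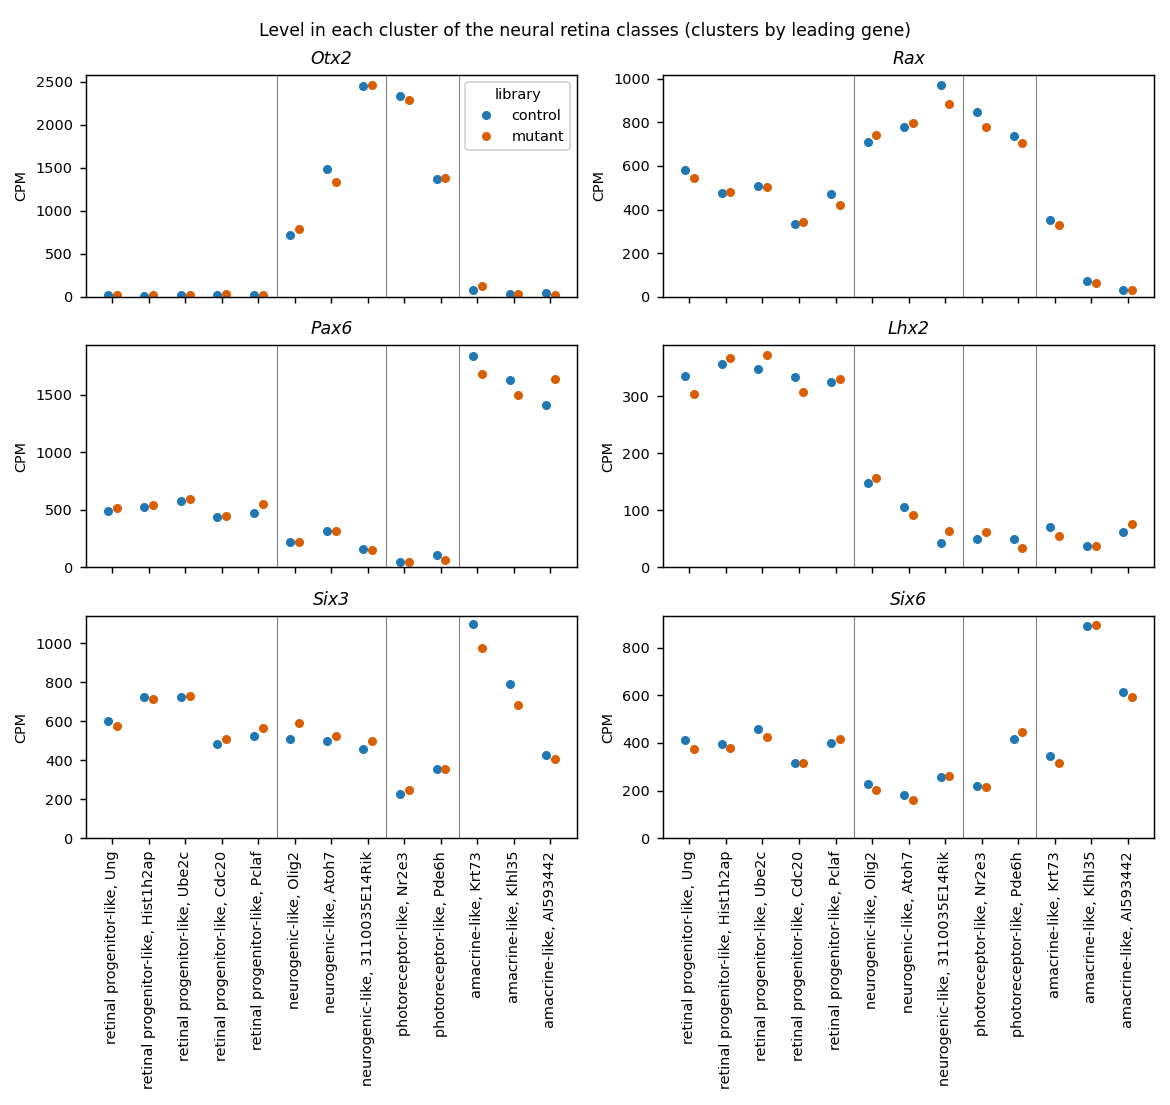
Level of 6 of the genes in CPM (linear axes from 0) in each cluster of the amacrine-like, photoreceptor-like, neurogenic-like and progenitor-like classes, named by their first leading gene. Otx2 reaches 2450 and 2463 CPM in a neurogenic cluster, Lhx2 is lower outside the progenitor clusters, and Rax differs between the amacrine clusters from 31.8 to 354 CPM in the control.

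The contrast between pigment epithelium and progenitors was drawn within each library, where both classes share animals, dissociation and sequencing. Mitf was 95.7-fold higher in RPE-like than in progenitor-like cells of the control and 168-fold higher in the mutant, and Otx2 37.4-fold and 28.7-fold higher. The progenitor levels of both genes were no higher than in red blood-like cells beyond counting error, so the size of these folds is uncertain. The progenitor class leaves out unnamed clusters that held 5 of 8 progenitor markers. Otx2 was at 178 and 156 CPM in that led by Miat, and 380 and 185 CPM in that led by Gm26870. The other measured genes were lower in RPE-like cells. The progenitor level was 3.83-fold and 3.69-fold the RPE level for Pax6, 2.03-fold and 1.51-fold for Lhx2, 3.24-fold and 2.60-fold for Six3, 9.68-fold and 15.9-fold for Six6, and 11.0-fold and 10.8-fold for Rax. These directions held under each of the 83 alternative values computed for them. In RPE-like cells as a whole, Six6 (42.3 and 24.2 CPM) and Rax (45.7 and 45.8 CPM) were no higher than in red blood-like cells beyond counting error (34.3 and 53.7 CPM for Six6, 58.9 and 51.4 CPM for Rax). Thinned shares of cells with a UMI were 6.33% and 3.30% for Six6 and 5.54% and 6.04% for Rax in RPE-like cells, against 8.85% and 5.13% for Six6 and 13.3% and 5.13% for Rax in red blood-like cells, whose median depths were 3579 and 12291 UMIs. No expression by the pigment epithelium is read from the average level of these 2 genes. In RPE-like cells Six6 was at 6.72% and 3.99% and Rax at 5.65% and 5.74% of the level in the highest class, while red blood-like cells were at 5.45% and 8.86% for Six6 and 7.28% and 6.44% for Rax. Other genes of the neural retina from a fixed list stood lower than that in the control, in RPE-like cells at 0.592% to 1.91% of their highest class, and 0.428% to 5.14% in the mutant (Crx, Nrl, Neurod1, Neurod4, Atoh7, Tfap2b and Fgf15), while Sfrp2, on the same list, was highest in RPE-like cells themselves, at 372 and 666 CPM.

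The comparison of genotypes asks whether these factors differ when Myrf is deleted in the eye field. In RPE-like cells 0 of the 7 measured genes passed a 2-fold difference in either direction. Of 98 ratios under other settings 5 did, 4 of them in cells of 1 sex and the other for Six6 in the shallower cells that a finer clustering set apart, at -1.03 (from -1.66 to -0.47). Among all 11084 genes with at least 20 UMIs in that class, 4.91% were lower and 2.63% were higher in the mutant by at least 2-fold. Smaller differences were present. Otx2, at 682 and 544 CPM, was lower in the mutant by a log2 ratio of -0.33 (from -0.43 to -0.23). The mutant was higher for Lhx2, by 0.40 (from 0.23 to 0.58), and for Six3, at 200 and 247 CPM, by 0.31 (from 0.14 to 0.47). Mitf had a ratio of -0.12 (from -0.32 to 0.07), Pax6 of 0.11 (from -0.10 to 0.32) and Rax of 0.00 (from -0.37 to 0.37), and these intervals include 0. Six6 was lower in the mutant, by -0.78 (from -1.28 to -0.35) from 136 and 58 UMIs. Counting intervals left 0 for 4 of the 7 genes, 2 on each side, and among all genes for 14.0% below and 13.1% above. The members' count is thus to be read beside many other genes whose intervals left 0 between these 2 pools, whose RPE-like cells also differ in depth.

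Depth was set beside the ratios directly. For Otx2 the mutant was below the control in cells of up to 4000 UMIs (533 and 349 CPM), from 4000 to 8000 UMIs (538 and 491 CPM) and over 8000 UMIs (722 and 557 CPM). Lhx2 was above the control in each band, at 162 and 188 CPM, 201 and 232 CPM, and 167 and 224 CPM. Six3 was below it in the shallowest band (222 and 160 CPM) and above it from 4000 to 8000 UMIs (193 and 218 CPM) and over 8000 UMIs (197 and 253 CPM), and thinning to 1000 UMIs gave a log2 ratio of -0.21. The direction for Otx2 and Lhx2 was the same at each depth, and that for Six3 was not. The counting intervals of the libraries overlapped in both bands up to 8000 UMIs for each of the 3 genes.

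**Figure D3:**
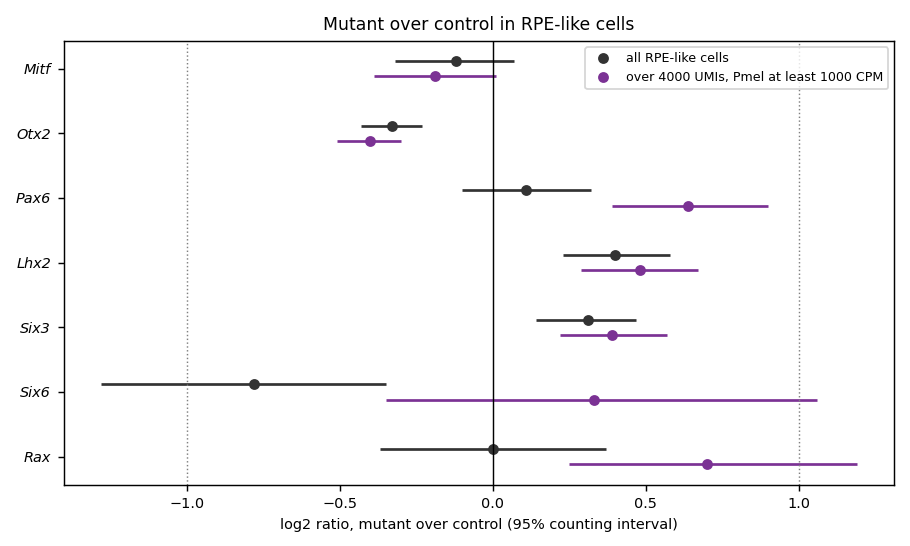
Log2 ratio of mutant over control in RPE-like cells with 95% counting intervals, for all RPE-like cells (black) and for those over 4000 UMIs with at least 1000 CPM of Pmel (purple), with dotted lines at 2-fold. Otx2 lies below 0 and Lhx2 and Six3 above 0 in both sets, while Six6 moves from -0.78 to 0.33 and Rax from 0.00 to 0.70.

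RPE-like cells were not uniform in these genes. At a finer clustering they divided into a shallow group (327 control and 112 mutant cells, medians of 1542 and 2932 UMIs) led by Pcp4, Slc38a8 and Slc6a15 and a deep group (150 and 98 cells, medians of 14325 and 17421 UMIs) led by Slc16a8, Ttr and Rgr. Mitf was 1.34-fold higher in the deep group of the control (182 against 136 CPM), and in the mutant it was at 157 against 146 CPM, where the interval of the ratio includes 0. Otx2 was lower in the shallow group, at 450 and 366 CPM against 785 and 608 CPM. Pax6 was the reverse, at 332 and 358 CPM in the shallow against 46.6 and 68.0 CPM in the deep group, a 7.13-fold and 5.26-fold difference. The deep-group levels lie near those of red blood-like cells (45.0 and 56.0 CPM) and above those of mesenchyme-like cells (25.5 and 29.6 CPM). Whether they are background was not tested. Six6 was 8.01-fold and 3.84-fold higher and Rax 5.31-fold and 2.08-fold higher in the shallow group. The groups differ in depth as well as in genes, and the part of depth in these folds was not tested. A few cells carried much of the Six6 folds and of the Rax fold in the control. Without 14 control and 6 mutant cells over 4000 UMIs that held little Pmel (under 1000 CPM), all of them in the shallow group, the folds were 2.93 and 2.40 for Six6, 3.45 and 1.87 for Rax and 5.17 and 5.02 for Pax6.

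A split within deep cells was added after the values were seen. RPE-like cells over 4000 UMIs were divided by Pmel, the gene for the melanosome fibril protein, at 1000 CPM. Few cells lay near that level: 175 of 195 control and 121 of 141 mutant cells had at least 5000 CPM, while 14 control and 6 mutant cells lay below 1000 CPM. The low-Pmel cells held 5.22% of the UMIs of these cells in the control but 73 of 108 Six6 UMIs (67.6%), 40.7% of Rax UMIs and 35.7% of Pax6 UMIs, against 0.408% of Otx2 and 2.48% of Mitf UMIs. In the mutant they held 2.13% of all UMIs, 26.9% of Six6, 7.84% of Rax and 8.26% of Pax6 UMIs. The levels in low-Pmel cells were 503 and 287 CPM for Six6, 861 and 553 CPM for Pax6 and 317 and 164 CPM for Rax, where red blood-like cells held 34.3 and 53.7 CPM, 45.0 and 56.0 CPM, and 58.9 and 51.4 CPM. The Rax level of the mutant rests on 8 UMIs (from 70.7 to 323 CPM). Otx2 was at 55.1 and 225 CPM in the low-Pmel cells, from 8 and 11 UMIs. Of the 6 listed ciliary margin markers, Zic1 (489 and 205 CPM) and Msx1 (241 and 102 CPM) were high in the low-Pmel cells and at most 1.52 CPM in the others. Otx1 stood at 138 and 41.0 CPM in low-Pmel cells (20 and 2 UMIs) against 11.8 and 16.9 CPM. The other 3 did not side with low Pmel in both libraries: Gja1 was at 903 and 81.9 CPM against 505 and 797 CPM, Ccnd2 at 214 and 328 CPM against 216 and 157 CPM, and Wls at 62.0 CPM and 0 UMIs against 332 and 183 CPM. Of the 11 RPE markers other than Pmel, 9 were lower in low-Pmel cells beyond counting error in the control and 7 in the mutant. Ttr was at 20.7 and 61.4 CPM against 5399 and 1108 CPM, while Dct, an enzyme of melanin synthesis, was at 55.1 and 307 CPM against 6426 and 4600 CPM. Serpinf1 was the exception in the control, at 117 against 47.4 CPM, and Rpe65 was near 0 on both sides (at most 3.79 CPM). The other eye field factors were less set apart. Lhx2 was at 331 and 266 CPM in low-Pmel cells against 161 and 224 CPM in the others. Six3 was at 262 and 164 CPM against 193 and 253 CPM. The low-Pmel cells thus had more Six6, Pax6 and Rax together with Zic1 and Msx1 and less of most RPE markers. They rest on 14 and 6 cells and get no class name.

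In the cells with Pmel, 181 control and 135 mutant cells, Six6 was at 13.3 and 16.9 CPM, a ratio of 0.33 (from -0.35 to 1.06), while in the low-Pmel cells the ratio was -0.81 (from -1.75 to 0.03). Cells of up to 4000 UMIs were not split. Otx2 was at 742 and 560 CPM there, a ratio of -0.40 (from -0.51 to -0.30). Pax6 was at 85.3 and 134 CPM, a ratio of 0.64 (from 0.39 to 0.90). Lhx2 had a ratio of 0.48, Six3 of 0.39 and Rax, at 25.4 and 41.9 CPM, of 0.70 (from 0.25 to 1.19), while Mitf was at 179 and 157 CPM, a ratio of -0.19. Within this set Otx2 was lower in the mutant beyond counting error and Pax6, Lhx2 and Six3 were higher. Rax and Six6 remain no higher than in red blood-like cells (medians of 3579 and 12291 UMIs). Mesenchyme-like cells (medians of 11533 and 11558 UMIs) held 22.5 and 22.8 CPM of Rax and 16.3 and 11.9 CPM of Six6. The mutant Rax level here (from 33.8 to 51.2 CPM) lies above that, and which of these levels is background was not tested. The sexes of the pooled pups also differed between the libraries: 127 control but 36 mutant RPE-like cells had Y-linked UMIs and no Xist, and 81 and 83 the reverse. Of the 14 low-Pmel control cells 9 had Y-linked UMIs without Xist and 0 the reverse, and the ratios in Xist and in Y-linked cells had opposite signs for Mitf (-0.39 and 0.25), Pax6 (1.63 and -0.11), Six6 (1.13 and -3.71) and Rax (2.23 and -0.47). For Mitf, Pax6 and Rax the interval in Y-linked cells includes 0, as does that of Otx2 there (-0.17, from -0.36 to 0.03) and that of Six3 in Xist cells (0.22, from -0.04 to 0.48), while Lhx2 was above 0 in both sets (0.57, from 0.27 to 0.87, and 0.34, from 0.01 to 0.66). The part of the pups' sex in these differences was not tested.

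**Figure D4:**
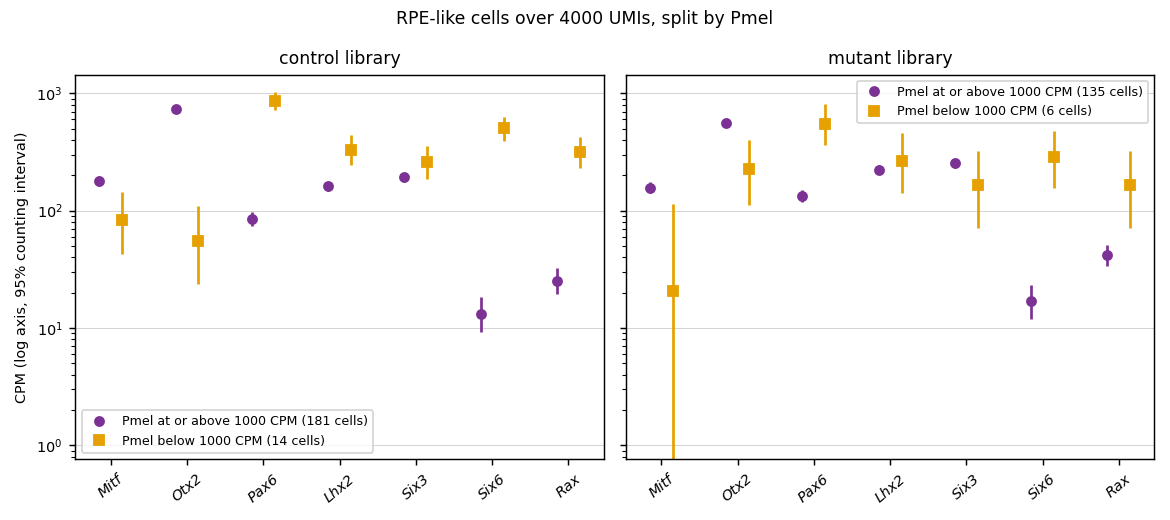
Level in CPM (log axis) with 95% counting intervals in RPE-like cells over 4000 UMIs, split at 1000 CPM of Pmel, for the control (left, 181 cells at or above and 14 below) and the mutant (right, 135 and 6). Otx2 and Mitf are higher in the cells with Pmel, and Pax6, Six6 and Rax in those with little Pmel, in both libraries.

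In the named classes of the neural retina no measured member passed 2-fold. In progenitor-like cells 0 of 7 measured genes passed 2-fold, where 0.720% of 13749 genes were lower and 0.131% higher by that much. The largest ratio was that of Mitf, -0.52 (from -1.80 to -0.10), at levels of 1.76 and 0.919 CPM that are no higher than in red blood-like cells of the control (2.14 CPM). Six6 had a ratio of -0.09 (from -0.14 to -0.05) and Pax6 of 0.06 (from 0.02 to 0.10), and Otx2, Lhx2, Six3 and Rax lay between -0.03 and 0.05 with intervals that include 0. The value of Otx2 (0.05) depended on which cells were named: at resolution 2 it was -0.79, from 630 and 430 UMIs, where 290 of the control UMIs came from 199 control cells of a shallow cluster that added 4 cells in the mutant. That cluster, led by Gm26870 and Hist1h2ae, held 5 of 8 progenitor markers and was left unnamed for its median of 981 UMIs. It had Otx2 at 380 CPM in 878 control and 185 CPM in 281 mutant cells, a ratio of -1.03 (from -1.43 to -0.66). In that cluster 5.00% of all genes were lower and 4.35% higher by at least 2-fold. In neurogenic-like cells 0 of 6 passed 2-fold, with 1.02% of all genes lower and 0.323% higher. There Otx2 had a ratio of -0.07 (from -0.11 to -0.03) and Six3 of 0.15 (from 0.08 to 0.22). In photoreceptor-like cells it was 0 of 6, with 1.46% of genes lower and 0.925% higher, and Pax6 had a ratio of -0.34 (from -0.68 to -0.01) and Rax of -0.10 (from -0.20 to -0.01). The Pax6 level of mutant photoreceptor-like cells, 53.4 CPM, was no higher than that of red blood-like cells. In amacrine-like cells it was 0 of 7, with 1.14% of genes lower and 0.821% higher. Six3 was lower there by -0.20 (from -0.27 to -0.13), and Pax6 had a ratio of 0.00 (from -0.05 to 0.05). Pax6, Lhx2, Six3, Six6 and Rax had between 6246 and 14682 UMIs per library in progenitor-like cells, so these intervals are narrow, and they leave out the spread between animals.

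Six3 was also read outside the neural lineage. In endothelial-like cells, the lining of blood vessels named from 8 of 8 markers, it was at 429 CPM (1396 UMIs) in control and 414 CPM (786 UMIs) in mutant cells, a ratio of -0.05 (from -0.18 to 0.08). After thinning 113 of 370 control (30.5%) and 48 of 160 mutant endothelial-like cells held a Six3 UMI, where the other 7 genes lay between 0% and 9.19%. Red blood-like cells held 46.1 and 66.2 CPM. The Six3 level in endothelial-like cells thus stood well above the red blood-like level and above the RPE-like level in both libraries. The overlapping Six3os1 cannot be told apart from it if strand was not used. Of the 6 measured genes 2 passed 2-fold in that class, Otx2 (50.7 and 15.3 CPM) and Six6 (44.5 and 18.4 CPM), beside 3.18% of all genes lower and 0.701% higher. Red blood-like cells held 55.7 and 35.4 CPM of Otx2 and 34.3 and 53.7 CPM of Six6, so no difference is read from either. In pericyte-like cells (85 and 63 cells) 2 of 5 measured genes passed 2-fold, Otx2 (33.6 and 6.51 CPM, 29 and 4 UMIs) and Pax6 in the other direction (26.6 and 61.9 CPM), beside 2.44% of genes lower and 2.21% higher, again at or below the red blood-like levels within counting error. In white blood-like cells Mitf was at 22.5 CPM (40 UMIs) in control and 6.14 CPM (4 UMIs) in mutant cells, a ratio of -1.72 (from -3.82 to -0.41). It was the 1 of 8 measured genes past 2-fold there, beside 5.54% of genes lower and 1.88% higher, and the class held 264 and 68 cells of unequal depth (medians of 2971 and 8775 UMIs).

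Related factors and target genes came from 2 fixed lists. Of 32 relatives and partners of the 8 genes, 22 had at least 20 UMIs in RPE-like cells, and 5 were lower and 1 higher in the mutant by at least 2-fold, beside 4.91% of all genes lower and 2.63% higher, with a median log2 ratio of -0.09 beside 0.00 over all genes. Sox10, a SoxE factor of pigment cells and glia, had 234 and 9 UMIs (72.8 and 3.75 CPM), a ratio of -3.96 (from -5.43 to -3.33). Tfeb, another relative of Mitf, was at 18.7 and 6.25 CPM (-1.44). Foxd1 and Vax2, which pattern the optic cup, had 138 and 47 UMIs (-1.09) and 54 and 18 UMIs (-1.07), and Zic2 had 30 and 6 UMIs (-1.56). The ratios of this list use all RPE-like cells. They were not recomputed without the low-Pmel cells or set beside red blood-like levels. Tbx2, a T-box factor of the dorsal optic cup, was the one that was higher, at 32.7 and 67.1 CPM, a ratio of 1.02 (from 0.67 to 1.41). Otx1, the paralog of Otx2, had 58 and 43 UMIs, a ratio of -0.01. In progenitor-like cells 0 of 28 measured genes of that list passed 2-fold, beside 0.720% of all genes lower and 0.131% higher, with a median of -0.01 beside 0.04.

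Of 17 pigment epithelium genes widely taken as targets of MITF and OTX2, 15 were measured in RPE-like cells, 4 were lower by at least 2-fold and 0 higher, beside the same 4.91% and 2.63% of all genes, and the median was -0.52 beside 0.00. In progenitor-like cells 2 of 14 measured genes of this list were lower by that much, Tyrp1 (10.1 and 3.33 CPM) and Ttr (10.1 and 3.37 CPM), beside 0.720% of all genes lower and 0.131% higher there, and the median was -0.49 beside 0.04. The RPE-like share of kept cells was 3.85% and 1.96%, and the part of their free RNA in these progenitor values was not tested. The 4 were Ttr, the retinol and thyroid hormone carrier (5000 and 1112 CPM, -2.17), Rlbp1 (822 and 332 CPM, -1.31) and Rdh5 (1124 and 489 CPM, -1.20) of the visual cycle, and Gpr143, a melanosome receptor (120 and 52.1 CPM, -1.19). Tyr, the first enzyme of melanin synthesis, was higher, at 953 and 1173 CPM, a ratio of 0.30 (from 0.23 to 0.37). Of these 15 genes 2 had a ratio above 0, Tyr and Trpm1, while Mitf itself had one of -0.12 and Otx2 of -0.33.

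**Figure D5:**
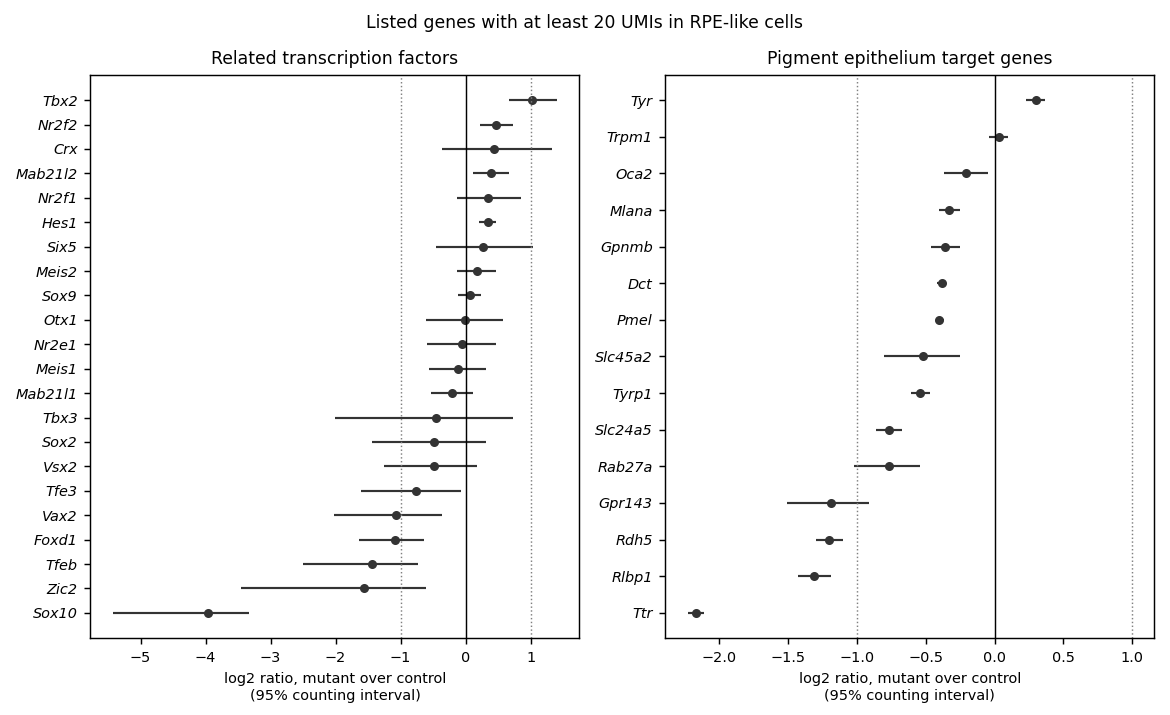
Log2 ratio of mutant over control in RPE-like cells with 95% counting intervals for the listed related factors (left, 22 genes) and target genes (right, 15 genes) with at least 20 UMIs, and dotted lines at 2-fold. Sox10 at -3.96 and Ttr at -2.17 are the lowest of their lists, Tbx2 at 1.02 and Tyr at 0.30 the highest.

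The genes whose pattern was most like each member were found by Pearson's r of log2(CPM + 1) over 11 classes in both libraries, 22 points that share libraries and depth, and are given as a description. For Mitf they were Col4a3 (0.90), Adam7 and Gsx2 (0.88 each), and with a stricter limit of 1000 UMIs in each library Gpnmb, Fcor and Rdh5. For Tfec they were Cd163, Fcgr2b and Trem2 (0.98 each), genes of macrophages. For Otx2 they were Abca4, Epha8 and Nrn1l (0.90 to 0.93). The closest to Pax6 were Ctnnd2, Celsr2 and its antisense gene Pax6os1 (0.89 to 0.90), to Lhx2 Gldc, Acsl3 and Nr2e1 (0.91 to 0.92), and to Six3 Tspan15, Trim37 and Cep70 (0.89 each). The closest to Six6 were Rorb, Epha5 and Adgrb3 (0.94 to 0.95) and to Rax Wdr66, Ckb and Msi1 (0.95 to 0.97). Among the members themselves Six6 and Rax were most alike (0.84), then Six3 and Six6 (0.78) and Lhx2 and Six3 (0.73). Mitf and Rax were the least alike (-0.36).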

How the data were processed

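The authors prepared 10x Genomics 3′ libraries from P0 eye cups and, per the submitters' processing notes, used Cell Ranger 7.1.0, Seurat 4.1.1 and the mm10 genome, while the matrix headers name software 3.1.0. What was deposited are raw counts of UMIs for each gene in each called barcode. The annotation and the strand setting of the counting are not given in the sources used here. Groups followed the genotype in the labels.

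A barcode needed 200 genes or more and a mitochondrial share of UMIs of 15% or less. Doublets were marked with Scrublet (scanpy 1.11.5) at an expected rate of 0.8% per 1000 cells, which removed 1750 control and 1222 mutant barcodes. Scrublet's own threshold marked 0% and 5.00%, so the rate was used in both. The study's upper limit of 2000 UMIs, which 80.2% of control and 92.1% of mutant barcodes exceed, was kept as an alternative.

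Cells were clustered with Seurat 5.3.0 (R 4.3.3) on 2000 variable genes after anchor integration of both libraries (30 principal components, Louvain clustering at resolution 1). The 8 genes, both gene lists, RPE and melanocyte markers, Myrf, Tmem98 and sex-linked genes, 70 in all, were kept out, which left 1968 genes. Names came from marker lists, and the limits for naming were set with the clusters in view. The 7 unnamed clusters were shallow or held markers of another class, and the named ones held 75.2% of control and 83.8% of mutant cells. Names may differ from those of the study.

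UMIs were summed per library and class. Intervals of CPM are exact Poisson, those of shares Clopper-Pearson, and for a ratio the exact conditional Poisson interval without any added CPM (scipy 1.17.1). Log2 ratios between libraries add 1 CPM to each side and needed 20 UMIs in the class and 50 cells in each library, and those between classes add none. A count of 0 was given 3 counts. Since each genotype is 1 library, nothing was tested. The ratios and the thinning were tested on simulated data. The named genes are the 8 members, Myrf, the 3 genes most like each member, and listed genes past 2-fold in RPE-like cells, while other genes named are markers, leading genes, list members or were chosen after their values were seen (Zic1, Msx1, Gja1, Rgr, Rpe65, Pmel, Sfrp2, Otx1, Tyr and Trpm1). The members and lists were chosen with earlier results of these data known. Gene positions came from GENCODE M21.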

Additional observations from a re-analysis of the deposited data

Results flagged for a closer look

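Six6 in RPE-like cells moved in opposite directions in cells of the 2 sexes, told apart by Xist and Y-linked UMIs. Where Xist was read but no Y-linked gene, it had 8 UMIs in 81 control cells and 30 UMIs in 83 mutant cells (8.77 and 20.4 CPM), a log2 ratio of mutant over control of 1.13 (from 0.06 to 2.55). Where Y-linked genes were read but not Xist, it had 92 UMIs in 127 control cells and 2 UMIs in 36 mutant cells (65.6 and 4.08 CPM), a ratio of -3.71 (from -7.07 to -2.11). The difference between the sexes was not tested, since each genotype is 1 pool. Of these 4 levels 3 lie below that of red blood-like cells (34.3 and 53.7 CPM), so no expression is read from those 3. The exception, 65.6 CPM in control cells with Y-linked UMIs, lies above the control red blood-like level. Of the 14 control cells with low Pmel, which held 73 Six6 UMIs, 9 were in the Y-linked set and 0 in the Xist set. Mitf (-0.39 and 0.25), Pax6 (1.63 and -0.11) and Rax (2.23 and -0.47) also had ratios of opposite sign in the same sets, each with an interval that includes 0 in the Y-linked set.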

How the results depend on the processing

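No paired analysis was possible because each genotype has 1 library. Of 98 alternative ratios of the 7 measured genes in RPE-like cells, 65 stayed within the counting interval of the reported value, 27 moved and 6 reversed, the last counted only where the reported interval left 0. The sign was that of the reported value in 74 of the 98. With at most 5% mitochondrial UMIs the log2 ratios were 0.21 for Mitf, -0.23 for Otx2, 0.66 for Pax6, 0.73 for Lhx2 and -0.32 for Six6. After thinning to 1000 UMIs they were 0.45 for Mitf, -0.58 for Otx2 and -0.21 for Six3, and in cells of at most 2000 UMIs -0.68 for Otx2, 0.35 for Pax6, 0.12 for Six3 and 0.53 for Six6 (12 and 4 UMIs). In cells with Xist alone they were -0.39 for Mitf, -0.53 for Otx2, 1.63 for Pax6, 1.13 for Six6 and 2.23 for Rax, and in cells with Y-linked UMIs alone 0.25 for Mitf, -0.17 for Otx2, -0.11 for Pax6, 0.58 for Six3, -3.71 for Six6 and -0.47 for Rax. At resolution 2, where the deep group kept the RPE name, they were 0.53 for Pax6, 0.47 for Six3, 0.01 for Six6 and 0.82 for Rax. In 2 settings added after seeing the data they were 0.10 for Mitf, -0.13 for Six3 and -0.49 for Rax in the shallow group, and 0.64 for Pax6, 0.33 for Six6 and 0.70 for Rax in cells over 4000 UMIs with at least 1000 CPM of Pmel. The cause of these moves was not tested. Otx2 was below and Lhx2 above 0 in every one of their alternatives. The share of genes higher by 2-fold was 1.55% with at least 100 UMIs in place of 2.63%. Of 42 alternative ratios in progenitor-like cells 31 stayed, 10 moved and 1 reversed, that of Mitf in cells of at most 2000 UMIs (3.04, from 0 and 1 UMIs). Of the moved ones 6 were in cells of at most 2000 UMIs (73 and 86 cells), such as -2.03 for Otx2 from 7 and 2 UMIs, and Otx2 was at -0.79 at resolution 2. Of 83 ratios of RPE-like over progenitor-like cells 37 stayed, 46 moved and 0 reversed. Depth allows Tfec in RPE-like cells no more than an upper limit (0.933 and 1.25 CPM).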
